A study of Mus musculus with 9 samples.

Results

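The 10 cytokine transcripts Il12b, Ifng, Il27, Il21, Il1b, Tnf, Tnfsf8, Il10, Il18bp and Il15 were followed across 9 RNA sequencing libraries of mouse gastrocnemius, a muscle of the calf. They are 10 of the 55401 genes in the deposited tables and were chosen by symbol for how they had differed between vector-injected and saline-injected muscle in these same libraries. Each library came from wild-type mice of the FVB strain aged 2 to 3 months, and the muscle was collected 7 weeks after it had been injected. One group had received an adeno-associated virus with green fluorescent protein and MBNL1∆ (AAV-GFP-MBNL1∆), one the same kind of vector with green fluorescent protein alone (AAV-GFP), and one saline, with 3 libraries each. MBNL1 regulates RNA splicing in muscle and is sequestered by CUG repeat expansions in myotonic dystrophy, for which the series title names a decoy protein. None of these mice is labelled as carrying the repeats. The labels used here give neither the promoter and dose of the vectors nor the sex of the mice.

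Cytokines are secreted or membrane-bound proteins that carry signals between immune cells, and between immune cells and the tissue around them. Interleukin 12, made by macrophages and dendritic cells, drives T cells and natural killer cells to make interferon gamma, which in turn activates macrophages. Skeletal muscle fibres make little of most of these signals, and interleukin 15 is an exception that muscle itself expresses and that sustains natural killer and memory CD8 T cells.

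Of the 10 transcripts, 9 were scarce in saline muscle and had a higher mean in AAV-GFP, and Il15 was the abundant exception. None of these 9 differences was called by edgeR, and AAV-GFP 3 lay among the saline libraries for Il10. Values are CPM, read counts scaled to the size of the library, and libraries held 44603618 to 76970849 counts. In whole muscle, fewer or more cells of a type and less or more RNA per cell cannot be told apart. All 10 passed the filter on low counts, which was set over all 9 libraries together. Il12b passed it through its AAV-GFP libraries, and Ifng, Il21 and Il27 through vector libraries alone, where they were high. Very few reads supported 3 of them in saline, where Il21 had 0 counts, Il12b 1 count and Ifng 3 counts over the group. Per kilobase of exon, the level of Il15 in saline was 7.43 ± 0.191 CPM (SD, n = 3), and the next was Il18bp at 0.526 ± 0.207 CPM. These levels per kilobase rest on counts over whole genes and on merged exons of all annotated transcripts.

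**Figure D1:**
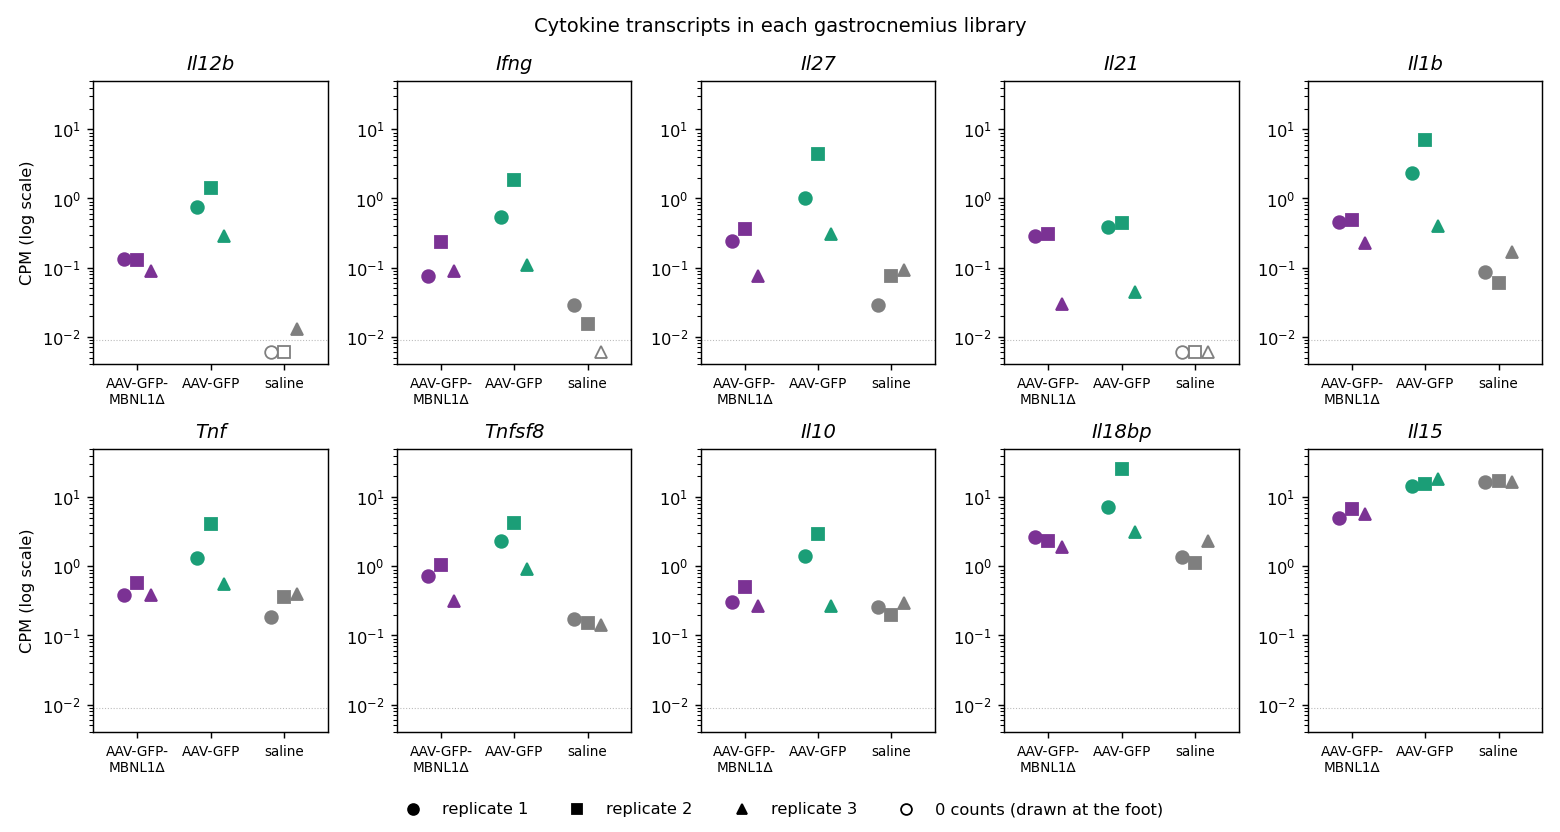
CPM of the 10 transcripts in each library on a log scale, by group, with a symbol for each replicate number and open symbols at the foot for 0 counts. AAV-GFP 2 is the highest of the 9 libraries in every panel except Il15, where the 3 AAV-GFP-MBNL1∆ libraries lie at 5.08 to 6.86 CPM, below the other 6.

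Promoter sequences are shown for Ifng, Tnf and Il1b, the 3 members found to hold the exact string TATAAA in this window. Each run holds the 250 bases before the annotated start of transcription, 5′ to 3′ on the strand of the gene, from RefSeq (GRCm38.p6). Capitals mark matches to the TATA box, TATAAA, and in Ifng also to TTCNNNGAA, the gamma-activated site that STAT proteins bind.
Ifng (chr10:118440796-118441045, plus strand): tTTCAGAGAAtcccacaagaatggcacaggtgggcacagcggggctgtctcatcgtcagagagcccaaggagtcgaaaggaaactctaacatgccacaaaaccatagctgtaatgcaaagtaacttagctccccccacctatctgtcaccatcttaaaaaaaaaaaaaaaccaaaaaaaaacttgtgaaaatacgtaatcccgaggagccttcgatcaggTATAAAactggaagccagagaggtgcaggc
Tnf (chr17:35202008-35202257, minus strand): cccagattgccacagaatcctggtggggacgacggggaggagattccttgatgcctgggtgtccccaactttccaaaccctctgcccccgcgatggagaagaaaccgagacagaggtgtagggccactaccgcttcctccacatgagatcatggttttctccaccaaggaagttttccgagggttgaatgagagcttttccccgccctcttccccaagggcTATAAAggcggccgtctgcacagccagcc
Il1b (chr2:129371140-129371389, minus strand): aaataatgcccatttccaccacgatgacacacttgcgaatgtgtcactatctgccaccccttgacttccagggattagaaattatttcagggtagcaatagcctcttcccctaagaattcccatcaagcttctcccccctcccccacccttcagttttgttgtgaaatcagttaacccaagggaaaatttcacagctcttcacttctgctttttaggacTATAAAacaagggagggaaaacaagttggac
TATAAA began 30, 29 and 31 bases before the start in Ifng, Tnf and Il1b. This exact string was present in 3 of the 7 members with an entry, against 12.4% of 32851 promoters of the same length. Other TATA-like strings, such as TATATAAG near the end of the Il12b window, were not searched. The gamma-activated site of Ifng lay at the far end of the window, 249 bases before the start, and this motif was present in 7.02% of promoters. No member matched the interferon-stimulated response element (GAAA, any 2 bases, GAAA, in 2.98% of promoters), the kappaB site (GGGA, any 4 bases, CC, in 17.6%) or the AP-1 site (TGANTCA, in 6.75%), with both strands searched for every motif. The matches describe letters in these windows and say nothing of binding. Il10, Il27 and Il15 had no entry.

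Il12b (mm10 chromosome 11, 44400063 to 44414033, plus strand) encodes the p40 subunit shared by interleukins 12 and 23. It stood at 0.135, 0.127 and 0.0899 CPM in AAV-GFP-MBNL1∆ 1, 2 and 3, at 0.741, 1.40 and 0.288 CPM in AAV-GFP 1, 2 and 3, and at 0, 0 and 0.013 CPM in saline. The 3 groups did not overlap, with AAV-GFP highest and saline lowest. Summed over libraries, 22 counts in AAV-GFP-MBNL1∆ against 1 count in saline gave a ratio of 24.8 (exact 95% interval 4.01 to 1024), and 175 counts in AAV-GFP against the same 1 count gave 192.6 (34.1 to 7649). These intervals cover counting error only. Between the vectors Il12b was lower in AAV-GFP-MBNL1∆, by a log2 fold change of −2.80 (SE 0.58, edgeR adjusted p = 0.0156). That call ended without any 1 of the 3 AAV-GFP-MBNL1∆ libraries, with an adjusted p of up to 0.0791.

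The other subunits of the family did not move as 1 block. Il12a, which encodes the p35 partner of interleukin 12, was at 3.17, 3.98 and 4.54 CPM in AAV-GFP-MBNL1∆, 3.38, 2.42 and 4.98 CPM in AAV-GFP and 5.70, 5.12 and 4.64 CPM in saline. Its groups overlapped in the comparisons of AAV-GFP with saline and of the vectors, and AAV-GFP 2, the library with most Il12b, had the least Il12a. The fitted difference of Il12a was −0.53 for AAV-GFP against saline (SE 0.25, adjusted p = 0.251). Il23a, the partner of p40 in interleukin 23, had 12 counts in all 9 libraries together and was not tested.

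Il27 (chromosome 7, 126589010 to 126594941, minus strand) encodes the p28 subunit of interleukin 27, a cytokine of myeloid cells. It stood at 0.241, 0.364 and 0.0749 CPM in AAV-GFP-MBNL1∆, at 1.02, 4.35 and 0.310 CPM in AAV-GFP and at 0.0289, 0.0757 and 0.0910 CPM in saline. AAV-GFP lay wholly above saline, while AAV-GFP-MBNL1∆ 3 lay among the saline libraries and AAV-GFP-MBNL1∆ 2 above AAV-GFP 3. Il27 was lower in AAV-GFP-MBNL1∆ than in AAV-GFP, by −3.10 on the log2 scale (SE 0.94, adjusted p = 0.0496). Its partner Ebi3 was at 0.438 ± 0.0958 CPM in AAV-GFP-MBNL1∆, 1.51 ± 1.37 CPM in AAV-GFP and 0.172 ± 0.0551 CPM in saline (SD, n = 3 each), with a difference between the vectors of −1.80 (SE 0.59, adjusted p = 0.0588).

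Ifng (chromosome 10, 118441046 to 118445892, plus strand) encodes interferon gamma, the macrophage-activating cytokine of T cells and natural killer cells. It stood at 0.0752, 0.236 and 0.0899 CPM in AAV-GFP-MBNL1∆, at 0.534, 1.82 and 0.111 CPM in AAV-GFP and at 0.0289, 0.0151 and 0 CPM in saline. Both vector groups lay above saline, and AAV-GFP 3 lay within the AAV-GFP-MBNL1∆ range. The counts behind this were 24 in AAV-GFP-MBNL1∆, 187 in AAV-GFP and 3 in saline, which gave ratios to saline of 9.02 (2.74 to 46.8) and 68.6 (23.1 to 335.6). Between the vectors the fitted difference was −2.68 (SE 0.92, adjusted p = 0.0668). In the annotation used here, 25.9% of the exon bases of Ifng also lie in the gene model Gm49751 on the same strand, which had 0 counts, so reads there may be missing from these levels.

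Il21 (chromosome 3, 37222759 to 37232636, minus strand) encodes interleukin 21, a T-cell cytokine that helps B cells. It had the fewest counts of the 10, 101 over all libraries. It stood at 0.286, 0.309 and 0.0300 CPM in AAV-GFP-MBNL1∆ and at 0.386, 0.436 and 0.0443 CPM in AAV-GFP, and no saline library had a count. Replicates 1 and 2 of both vector groups were alike, and replicate 3 of both was low, with 2 counts each. Set against a floor of 3 counts over the saline group, or 0.0141 CPM, the summed counts of Il21 gave ratios of 14.3 in AAV-GFP-MBNL1∆ (38 counts) and 23.1 in AAV-GFP (63 counts). These ratios leave out the counting error of the vector groups and have no interval. Between the vectors Il21 differed least of the 9 scarce transcripts, by −0.55 (SE 0.88, adjusted p = 0.671).

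Il1b (chromosome 2, 129364570 to 129371139, minus strand) encodes interleukin 1 beta, an inflammatory cytokine of myeloid cells. It stood at 0.451, 0.491 and 0.225 CPM in AAV-GFP-MBNL1∆, at 2.36, 7.03 and 0.399 CPM in AAV-GFP and at 0.0866, 0.0606 and 0.169 CPM in saline. Both vector groups lay above saline, and AAV-GFP 3 was below AAV-GFP-MBNL1∆ 1 and 2. The difference between the vectors was −3.08 (SE 0.89, adjusted p = 0.0435). Il1rn, which encodes the interleukin 1 receptor antagonist, was at 0.752, 0.709 and 0.255 CPM in AAV-GFP-MBNL1∆, 7.72, 31.6 and 0.598 CPM in AAV-GFP and 0.217, 0.197 and 0.143 CPM in saline. It was lower in AAV-GFP-MBNL1∆ than in AAV-GFP, by −4.55 (SE 1.18, adjusted p = 0.0338), with AAV-GFP 3 inside the AAV-GFP-MBNL1∆ range.

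Tnf (chromosome 17, 35199381 to 35202007, minus strand) encodes tumour necrosis factor. It stood at 0.391, 0.582 and 0.390 CPM in AAV-GFP-MBNL1∆, at 1.31, 4.10 and 0.554 CPM in AAV-GFP and at 0.188, 0.363 and 0.403 CPM in saline. Libraries 1 and 2 of AAV-GFP stood above the other 7, AAV-GFP-MBNL1∆ overlapped saline, and AAV-GFP 3 overlapped AAV-GFP-MBNL1∆. The fitted difference was 0.50 for AAV-GFP-MBNL1∆ against saline (SE 0.69) and −2.15 between the vectors (SE 0.66, adjusted p = 0.0519).

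Tnfsf8 (chromosome 4, 63831308 to 63861347, minus strand) encodes CD30 ligand, a membrane protein of the tumour necrosis factor family found on activated T cells. It stood at 0.737, 1.06 and 0.315 CPM in AAV-GFP-MBNL1∆, at 2.34, 4.19 and 0.908 CPM in AAV-GFP and at 0.173, 0.151 and 0.143 CPM in saline. Both vector groups lay above the narrow saline range, and AAV-GFP-MBNL1∆ 2 overlapped AAV-GFP 3. The difference between the vectors was −1.84 (SE 0.56, adjusted p = 0.0496). Its receptor Tnfrsf8 (CD30) had fitted differences of 1.40 for AAV-GFP-MBNL1∆ against saline (SE 0.90, adjusted p = 0.368) and −2.28 between the vectors (SE 0.75, adjusted p = 0.0599).

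Il10 (chromosome 1, 131019845 to 131024974, plus strand) encodes interleukin 10, which restrains macrophages and T cells. It stood at 0.301, 0.509 and 0.270 CPM in AAV-GFP-MBNL1∆, at 1.39, 2.98 and 0.266 CPM in AAV-GFP and at 0.26, 0.197 and 0.299 CPM in saline. Il10 was high in AAV-GFP 1 and 2 and at the saline level in AAV-GFP 3, so that no pair of groups separated. The fitted differences were 0.50 for AAV-GFP-MBNL1∆ against saline (SE 0.75) and −2.13 between the vectors (SE 0.70, adjusted p = 0.0613).

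Il18bp (chromosome 7, 102014885 to 102018690, minus strand) encodes the secreted protein that binds and neutralises interleukin 18. It stood at 2.65, 2.35 and 1.90 CPM in AAV-GFP-MBNL1∆, at 7.21, 25.6 and 3.19 CPM in AAV-GFP and at 1.37, 1.11 and 2.30 CPM in saline. AAV-GFP lay above all other libraries, and AAV-GFP-MBNL1∆ 3 lay below saline 3. Il18bp was lower in AAV-GFP-MBNL1∆ than in AAV-GFP, by −2.39 (SE 0.69, adjusted p = 0.0439). Il18 itself was at 0.995 ± 0.206 CPM in AAV-GFP-MBNL1∆, 2.13 ± 1.56 CPM in AAV-GFP and 0.744 ± 0.0444 CPM in saline (SD, n = 3 each), with no call in any comparison (adjusted p from 0.103 to 0.614).

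Il15 (chromosome 8, 82331632 to 82403222, minus strand) differed from the other 9 in level and in direction. It stood at 5.08, 6.86 and 5.65 CPM in AAV-GFP-MBNL1∆, at 14.7, 15.7 and 18.2 CPM in AAV-GFP and at 16.4, 17.2 and 16.8 CPM in saline. All 3 AAV-GFP-MBNL1∆ libraries lay below the other 6, as did 10.6% of the 18514 genes tested, and AAV-GFP overlapped saline. The mean was 5.86 ± 0.906 CPM in AAV-GFP-MBNL1∆, against 16.2 ± 1.79 CPM in AAV-GFP and 16.8 ± 0.431 CPM in saline (SD, n = 3 each), a log2 fold change of −1.52 against saline (SE 0.13) and −1.46 against AAV-GFP (SE 0.13). The edgeR adjusted p for the vectors was 0.000536 and was at most 0.00634 when any 1 library was left out. AAV-GFP against saline gave −0.06 (SE 0.12, adjusted p = 0.796), with an adjusted p of 0.0665 in limma-voom with library weights, the lowest under any alternative.

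The receptor chains of interleukin 15 went different ways. Il15ra, the chain that holds and presents the cytokine, was at 21.7, 21.6 and 19.4 CPM in AAV-GFP-MBNL1∆, at 29.3, 33.0 and 28.7 CPM in AAV-GFP and at 26.2, 31.1 and 30.1 CPM in saline. Like Il15, it was lowest in the 3 AAV-GFP-MBNL1∆ libraries, and it fell by 0.54 on the log2 scale against AAV-GFP (SE 0.095, adjusted p = 0.00909, at most 0.0493 with any 1 library left out). Against saline the difference of Il15ra was −0.48 (SE 0.095, adjusted p = 0.0183), a call that ended without AAV-GFP-MBNL1∆ 1 or 3 or saline 2 or 3 (adjusted p up to 0.0841). Il2rb, the signalling chain on lymphocytes, was at 3.61, 3.35 and 1.54 CPM in AAV-GFP-MBNL1∆, at 8.36, 26.0 and 2.02 CPM in AAV-GFP and at 0.217, 0.0606 and 0.0780 CPM in saline. Il2rb thus followed the order of the 9 scarce transcripts and not that of Il15. Il2rg, the chain shared by the receptors of interleukins 15 and 21, was at 0 counts in all 9 libraries. It lies within the span of another gene on the same strand (Gm20489), as do 434 protein-coding genes of which 432 (99.5%) had 0 counts here, against 16.3% of the 20708 protein-coding genes inside no other gene, so Il2rg was not measured.

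**Figure D2:**
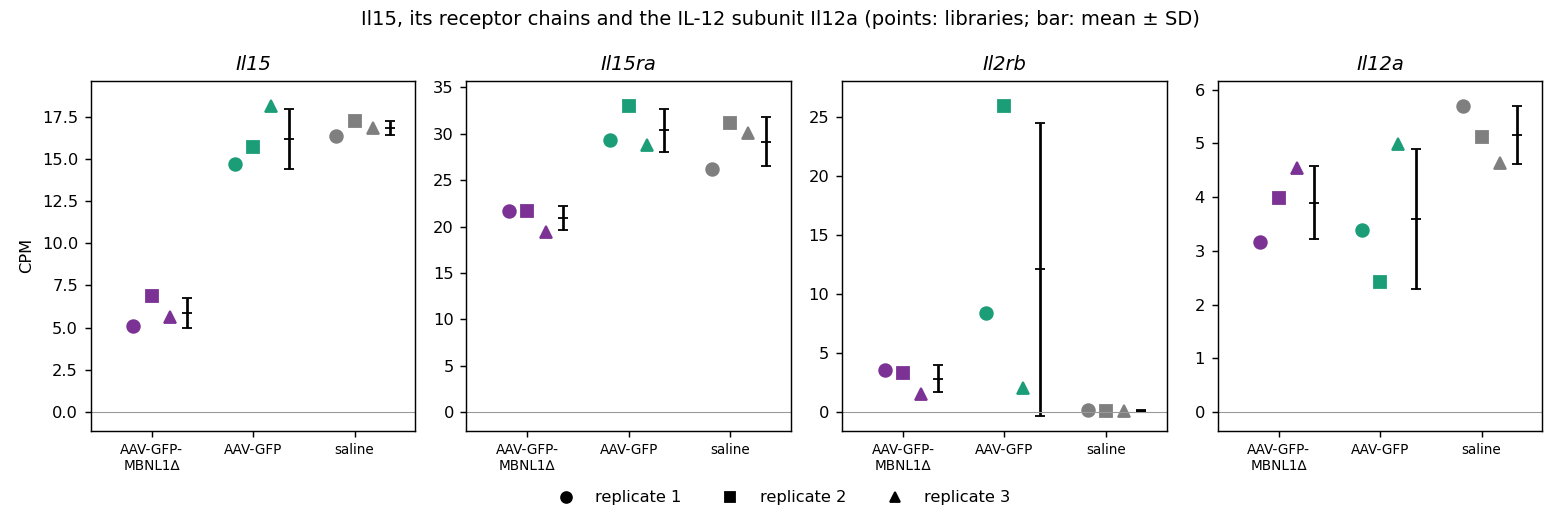
CPM of Il15, Il15ra, Il2rb and Il12a in each library on linear axes, with the mean and SD of each group (n = 3) beside its points. Il15 and Il15ra are lowest in the 3 AAV-GFP-MBNL1∆ libraries, Il2rb is highest in AAV-GFP 2 at 26.0 CPM and near 0 in saline, and Il12a shows no group wholly apart from both others.

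Across the 10 transcripts, the fits can be set beside those of all genes. In AAV-GFP-MBNL1∆ against saline, Il12b was called higher and Il15 lower, 2 of 10, where 9.37% of the 18514 genes tested were called, 4.76% higher and 4.6% lower. Of the members, 5 lay wholly above saline (Il12b, Ifng, Il21, Il1b and Tnfsf8), as did 22.7% of genes, and Il15 lay wholly below, as did 20% of genes. Il12b had 9, 7 and 6 counts in AAV-GFP-MBNL1∆ and at most 1 in a saline library, under the filter's minimum count of 10. It was tested in this comparison only because its AAV-GFP libraries (50, 112 and 13 counts) passed. The same held for Ifng (5, 13 and 6 counts in AAV-GFP-MBNL1∆), Il21 (19, 17 and 2) and Il27 (16, 20 and 5). These 3 reached the minimum count in too few libraries of this comparison. The call of Il12b (adjusted p = 0.0471) held when AAV-GFP 2 or AAV-GFP 3 was left out and was lost without each of the other 7, where the adjusted p reached 0.141. Because the members were chosen for their difference from saline, nothing is read from these counts.

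In AAV-GFP against saline, 0 of 10 members and 0% of genes were called in edgeR, although 8 members lay wholly above saline (all except Il10 and Il15), as did 14.7% of genes. Ifng (36, 146 and 5 counts) and Il21 (26, 35 and 2) reached the filter's minimum count here in AAV-GFP 1 and 2 only. They were tested because AAV-GFP-MBNL1∆ libraries passed too. At an unadjusted p under 0.05, 2889 genes were higher and 1176 lower. DESeq2 called 9 members and 1705 genes, and limma-voom with library weights called 9 members and 5422 genes. In edgeR, 9 members and 3262 genes were called without AAV-GFP 3, and 1 member, Il12b, and 5 genes without AAV-GFP 2. The log2 fold changes of the 6 scarce transcripts with more than 3 counts in saline were 2.62 for Il10, 2.65 for Tnf, 2.91 for Il18bp, 3.99 for Tnfsf8, 4.83 for Il27 and 4.92 for Il1b, with SE from 0.64 to 1.07.

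Between the vectors, 6 of the 10 members were called lower in AAV-GFP-MBNL1∆ (Il12b, Il27, Il1b, Tnfsf8, Il18bp and Il15), against 10.3% of all genes called lower (21.1% in either direction), and none was called higher. Of the 10 members, 3 lay wholly below AAV-GFP (Il12b, Il18bp and Il15), as did 19.2% of genes. The members had been chosen in part for high values in AAV-GFP or low values in AAV-GFP-MBNL1∆, so these p-values are not independent of the choice. The calls of Il27, Il1b, Tnfsf8 and Il18bp held with AAV-GFP 3 left out and were lost without any 1 of the other 8 libraries (adjusted p up to 0.154), while Il15 was called in every case. The median difference of the members was −2.27, against −0.06 over all genes. DESeq2 called 9 members and 5664 genes, and limma-voom with library weights 9 members and 9236 genes. With no filter on low counts 2 members and 2746 genes were called, and with only the 2 groups fitted 2 members and 1159 genes.

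**Figure D3:**
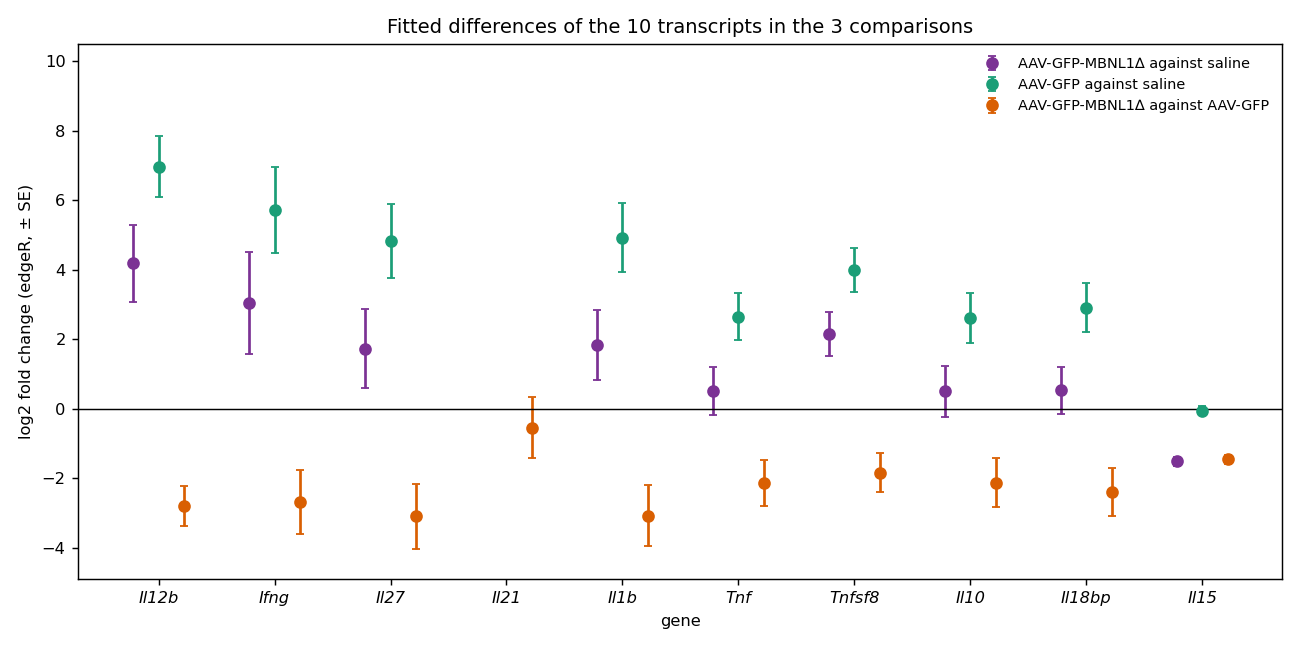
Log2 fold changes of the 10 transcripts from edgeR, with SE, in AAV-GFP-MBNL1∆ against saline, AAV-GFP against saline and AAV-GFP-MBNL1∆ against AAV-GFP. Il21 is not drawn against saline, where it had 0 counts, and the values of Il12b and Ifng against saline rest on 1 and 3 saline counts. Il15 alone is below 0 in AAV-GFP-MBNL1∆ against saline and near 0 in AAV-GFP against saline.

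The 9 scarce transcripts shared an order of libraries within AAV-GFP. In all 9, AAV-GFP 2 was the highest of the 9 libraries, AAV-GFP 1 came next within its group and AAV-GFP 3 was the lowest of its group. AAV-GFP 2 held 50.4% (Il21) to 76.5% (Il27) of the group's summed CPM. AAV-GFP-MBNL1∆ 3 was the lowest of its group in 8 of the 10. A mean of the AAV-GFP group therefore describes 3 unlike libraries, and the SDs of Ifng (0.821 ± 0.890 CPM), Il27 (1.89 ± 2.16 CPM) and Il1b (3.26 ± 3.41 CPM) exceeded the means (n = 3 each).

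The summed markers of T, natural killer, B, plasma and dendritic cells, macrophages and neutrophils were likewise highest in AAV-GFP 2, next in AAV-GFP 1 and lowest in AAV-GFP 3 within that group. Those of mast cells were highest in saline 1. All 9 T-cell markers had a higher mean in each vector group than in saline, and their summed level was 5.86 to 15.2 CPM in AAV-GFP-MBNL1∆, 5.45 to 80.2 CPM in AAV-GFP and 0.545 to 0.975 CPM in saline, where Cd8a had 0 counts. The same held for all 5 natural killer markers, with sums of 1.71 to 4.55 CPM in AAV-GFP-MBNL1∆, 3.08 to 38.5 CPM in AAV-GFP and 0.257 to 0.433 CPM in saline, and for all 5 B-cell markers, at 1.80 to 6.47 CPM in AAV-GFP-MBNL1∆, 1.06 to 36.6 CPM in AAV-GFP and 0.121 to 0.481 CPM in saline. All 7 macrophage markers were higher too, with sums of 112.3 to 159.8 CPM in AAV-GFP-MBNL1∆, 126.4 to 971.4 CPM in AAV-GFP and 68.3 to 84.3 CPM in saline. All 8 dendritic cell markers and all 6 neutrophil markers had higher means as well. The dendritic cell sum was 19.9 to 24.5 CPM in AAV-GFP-MBNL1∆, 20.9 to 59.0 CPM in AAV-GFP and 14.0 to 17.9 CPM in saline. The neutrophil sum was 0.494 to 1.49 CPM in AAV-GFP-MBNL1∆, 0.332 to 4.46 CPM in AAV-GFP and 0.101 to 0.299 CPM in saline, where Ly6g was at 0. Of 4 plasma cell markers 2 were higher in AAV-GFP-MBNL1∆ and 3 in AAV-GFP, and they summed to 35.8 to 98.5 CPM in AAV-GFP-MBNL1∆, 7.86 to 893.7 CPM in AAV-GFP and 6.30 to 7.33 CPM in saline, with Mzb1 at 0 throughout. The 6 mast cell markers summed to 12.4 to 14.3 CPM in AAV-GFP-MBNL1∆, 19.8 to 20.9 CPM in AAV-GFP and 15.7 to 21.3 CPM in saline. Of the 6, 0 had a mean above saline in AAV-GFP-MBNL1∆ and 5 in AAV-GFP. The part of these cells in the cytokine levels was not tested.

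**Figure D4:**
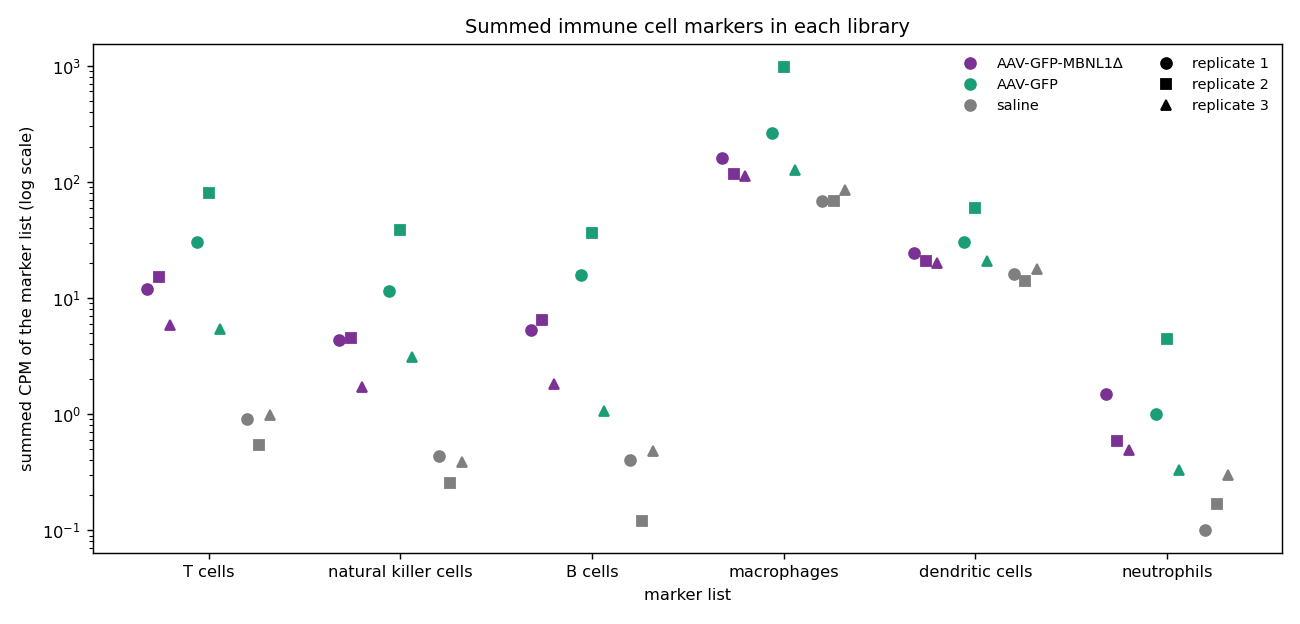
Summed CPM of the marker lists of 6 immune cell types in each library on a log scale. AAV-GFP 2 is the highest library in every list, at 80.2 CPM for T cells and 971.4 CPM for macrophages, and the 3 saline libraries are the lowest in every list.

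Fibre markers checked the tissue and were abundant in all libraries, at 155900 to 181300 CPM in AAV-GFP-MBNL1∆, 83770 to 138200 CPM in AAV-GFP and 139000 to 177400 CPM in saline, summed over 7 genes. AAV-GFP thus held the lowest values of this sum. Sex-linked genes separated AAV-GFP-MBNL1∆ from both other groups, as Il15 did. Xist was at 0.0182 to 0.0902 CPM in AAV-GFP-MBNL1∆, against 105.9 to 135.7 CPM in AAV-GFP and 105.1 to 129.7 CPM in saline. The Y-linked Ddx3y was at 82.7 to 84.6 CPM in AAV-GFP-MBNL1∆, 0.487 to 2.58 CPM in AAV-GFP and 0.409 to 0.693 CPM in saline. The sex of the mice and the MBNL1∆ vector cannot be told apart here. Adipocyte markers summed to 6.73 to 35.2 CPM in AAV-GFP-MBNL1∆, 62.5 to 86.5 CPM in AAV-GFP and 33.3 to 98.1 CPM in saline, and their part in the Il15 difference was not tested.

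Of 21 receptor chains for the 10 cytokines, 19 were tested. In AAV-GFP-MBNL1∆ against saline 3 rose and 2 fell, against 4.76% of all genes called higher and 4.6% called lower. The median log2 difference over the 19 was 0.90, against 0.02 over all genes. The risers were Il1r1 (1.43, SE 0.21, adjusted p = 0.00593), the signalling receptor of interleukin 1, its decoy Il1r2 (1.34, SE 0.29, adjusted p = 0.0248) and Il2rb (4.56, SE 1.02, adjusted p = 0.0314), and the fallers were Il15ra, given above, and Ifngr2 (−0.60, SE 0.15, adjusted p = 0.0363), a chain of the interferon gamma receptor. Leaving out 1 library kept the call of Il1r1 each time. The calls of Il2rb and Ifngr2 held when AAV-GFP 2 or 3 was left out and were lost without each of the other 7 libraries (largest adjusted p 0.136), and that of Il1r2 ended without any AAV-GFP-MBNL1∆ library or saline 1 or 2 (up to 0.106).

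Il1r1 was at 31.2, 21.4 and 24.1 CPM in AAV-GFP-MBNL1∆, at 13.1, 17.0 and 9.43 CPM in AAV-GFP and at 9.40, 9.45 and 9.61 CPM in saline. Il1r1 and Il1r2 were higher in AAV-GFP-MBNL1∆ than in either other group, whereas the ligand Il1b was highest in AAV-GFP. Between the vectors they differed by 0.95 (SE 0.21, adjusted p = 0.0185) and 1.12 (SE 0.29, adjusted p = 0.0296). Those calls ended without AAV-GFP-MBNL1∆ 1 or 3 or AAV-GFP 1, and that of Il1r2 also without AAV-GFP-MBNL1∆ 2 (adjusted p up to 0.109).

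No receptor chain was called in AAV-GFP against saline by edgeR, while 13 of 19 were higher at an unadjusted p under 0.05 and DESeq2 called 11. Of all 18514 genes tested, 2889 were higher at the same unadjusted p in edgeR, and DESeq2 called 1705. The median of the 19 was 1.73, against −0.01 over all genes. The chains with the smallest p-values were Il2rb (6.66, SE 1.07), Il18rap (5.39, SE 0.90) and Il18r1 (4.27, SE 0.85), the last 2 being the receptor of interleukin 18, and Il21r (5.57, SE 1.15), each with an adjusted p of 0.0841. The interleukin 12 receptor chains Il12rb1 and Il12rb2 differed by 5.01 (SE 1.22, adjusted p = 0.088) and 2.97 (SE 0.70, adjusted p = 0.0855), and Il27ra by 1.73 (SE 0.58, adjusted p = 0.155). Between the vectors only Il15ra was called lower, where 10.3% of all genes were, and the median of the 19 was −1.38.

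Of 12 partner subunits, processing enzymes and antagonists, 10 were tested, and none was called in AAV-GFP-MBNL1∆ against saline or in AAV-GFP against saline by edgeR. At an unadjusted p under 0.05, 0 were higher and 1 lower in AAV-GFP-MBNL1∆ against saline, and 8 were higher in AAV-GFP against saline, where DESeq2 called 7. Over all 18514 genes tested, the same unadjusted p in edgeR gave 2423 higher and 2394 lower in AAV-GFP-MBNL1∆, and 2889 higher in AAV-GFP. DESeq2 called 1705 of all genes in AAV-GFP against saline. The medians of the 10 were 0.42 and 2.56. Between the vectors Il1rn and Casp1, the protease that matures interleukins 1 beta and 18, were lower in AAV-GFP-MBNL1∆, with a median of −1.91 over the 10. They were 2 of the 10, where 10.3% of all genes were called lower. Casp1 was at 2.33, 2.91 and 1.66 CPM in AAV-GFP-MBNL1∆, 7.28, 23.1 and 3.25 CPM in AAV-GFP and 1.57, 1.89 and 1.65 CPM in saline (−2.29 between the vectors, SE 0.63, adjusted p = 0.0386). Both calls held when AAV-GFP 3 was left out, that of Casp1 also without AAV-GFP 2, and both were lost in the other cases (largest adjusted p 0.132).

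Of 45 other cytokines, 21 were tested and 11 had 0 counts in all 9 libraries. Of those 11, Tnfsf12 and Tnfsf13 lie within the span of the same-strand gene Tnfsfm13 and were not measured. None was called against saline by edgeR in either vector group. At an unadjusted p under 0.05, 2 were higher and 1 lower in AAV-GFP-MBNL1∆, and 14 were higher in AAV-GFP, and DESeq2 called 2 and 7. Over all 18514 genes tested, at the same unadjusted p in edgeR, 2423 were higher and 2394 lower in AAV-GFP-MBNL1∆, and 2889 higher in AAV-GFP. Against saline DESeq2 called 2889 of all genes in AAV-GFP-MBNL1∆ and 1705 in AAV-GFP. The medians of the 21 were −0.03 in AAV-GFP-MBNL1∆ and 0.81 in AAV-GFP against saline, and −0.92 between the vectors. The smallest p-value in AAV-GFP-MBNL1∆ against saline was that of Ltb (lymphotoxin beta, 3.29, SE 0.90, adjusted p = 0.0587). Between the vectors 5 fell in AAV-GFP-MBNL1∆: Il7 (−1.65), Il33 (−1.18), Il16 (−1.17), Tnfsf10 (−1.03) and Tslp (−0.90), with adjusted p from 0.0156 to 0.0457, where 10.3% of all genes were called lower. Il7, a growth factor of lymphocytes made by stromal cells, was at 0.286, 0.145 and 0.225 CPM in AAV-GFP-MBNL1∆, 0.460, 0.835 and 0.797 CPM in AAV-GFP and 0.419, 0.485 and 0.312 CPM in saline. Its call ended without AAV-GFP-MBNL1∆ 2 or 3 and that of Il33 without any AAV-GFP-MBNL1∆ library. Those of Tnfsf10 and Tslp were kept only without AAV-GFP 3 and that of Il16 only without AAV-GFP 2 or 3 (adjusted p of the 5 up to 0.155).

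Of 29 signal transducers, 28 were tested, and Myd88, which lies within the span of Slc22a14 on the same strand, was at 0 counts and not measured. In AAV-GFP-MBNL1∆ against saline Jak2, a kinase of the interferon gamma and interleukin 12 receptors, rose by 0.41 (SE 0.089, adjusted p = 0.0243) and the NF-kappaB subunit Rel fell by 0.83 (SE 0.20, adjusted p = 0.0346). These were the only calls among the 28, 1 higher and 1 lower, where 4.76% of all genes were called higher and 4.6% lower. The Jak2 call ended without any AAV-GFP-MBNL1∆ library or saline 2 or 3, and the Rel call was kept only without AAV-GFP-MBNL1∆ 1 or AAV-GFP 2 or 3 (adjusted p up to 0.12). In AAV-GFP against saline edgeR called none, 18 were higher and 1 lower at an unadjusted p under 0.05, and DESeq2 called 14. Of all 18514 genes tested, 2889 were higher and 1176 lower at the same unadjusted p in edgeR, and DESeq2 called 1705. The medians of the 28 were 0.26 in AAV-GFP-MBNL1∆ and 0.71 in AAV-GFP against saline, and −0.66 between the vectors.

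Between the vectors, 6 of the 28 transducers fell in AAV-GFP-MBNL1∆, against 10.3% of all genes called lower, and Jak2 rose by 0.48 (SE 0.089, adjusted p = 0.011). Irf1, an interferon-induced transcription factor, and the feedback inhibitors Socs1 and Socs3 fell, with log2 fold changes of −2.1 (SE 0.56, adjusted p = 0.0371), −2.43 (SE 0.59, adjusted p = 0.0274) and −2.12 (SE 0.57, adjusted p = 0.0362). Rel fell by 1.05 (SE 0.20, adjusted p = 0.0112) and Stat5a by 0.43 (SE 0.12, adjusted p = 0.0357). Rel kept its call whichever library was left out and Jak2 ended without AAV-GFP-MBNL1∆ 3 alone. Socs1 ended without AAV-GFP 1 or any AAV-GFP-MBNL1∆ library, Stat5a held with AAV-GFP 2 or 3 left out, and Irf1 and Socs3 only without AAV-GFP 3 (adjusted p up to 0.128).

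**Figure D5:**
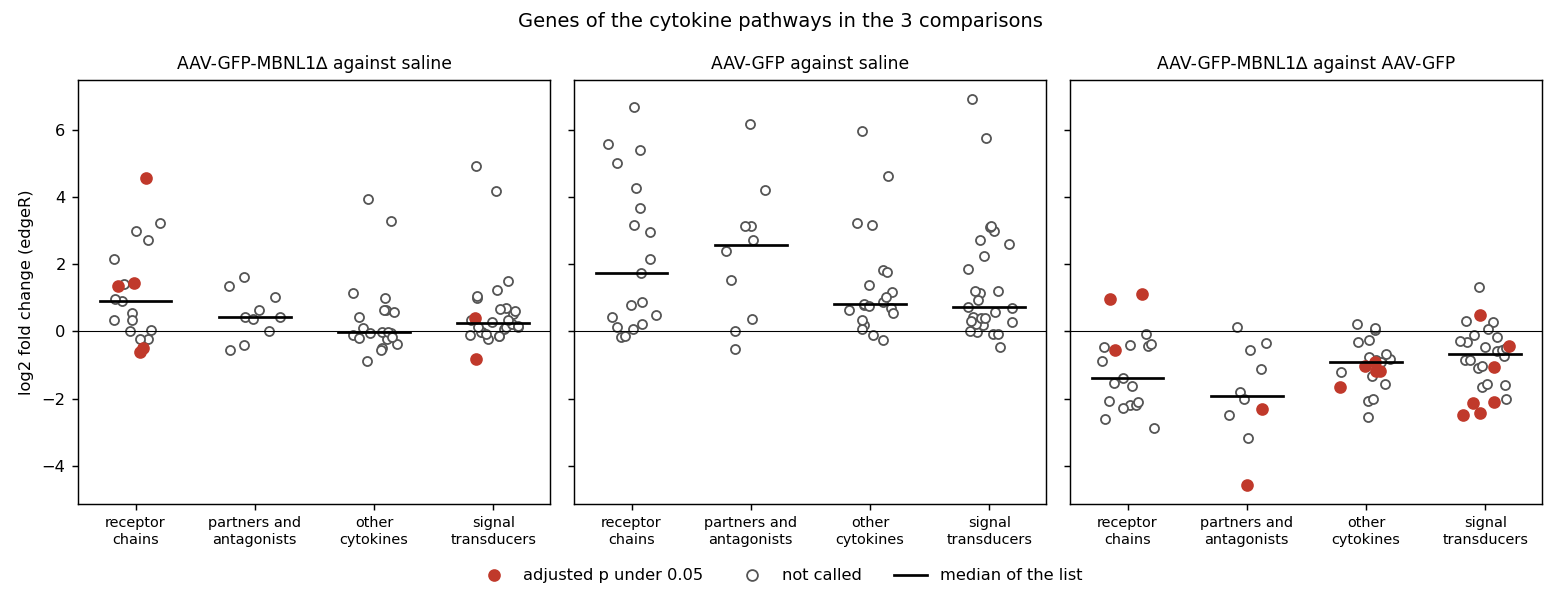
Log2 fold changes from edgeR of the tested genes of the 4 pathway lists in the 3 comparisons, with filled points for an adjusted p under 0.05 and a bar at each list's median. In AAV-GFP against saline no point is filled although the medians are 0.71 to 2.56; between the vectors the medians are −1.91 to −0.66.

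The genes whose log2 CPM over the 9 libraries was most like that of Ifng were Arhgap15, Fcho1, Clec12a, Glipr1, Runx3 and Ccdc88b (Pearson r 0.984 to 0.978). Runx3, a transcription factor of cytotoxic lymphocytes, averaged 1.06 ± 0.349 CPM in AAV-GFP-MBNL1∆, 3.76 ± 3.29 CPM in AAV-GFP and 0.247 ± 0.0453 CPM in saline (SD, n = 3 each). For Il15 they were Mybph, Zfp329, Ctnnbl1, Sh3glb2 and Mmp16 (r 0.988 to 0.977). Mybph, a myosin-binding protein of muscle, was at 48.2 ± 18.8 CPM in AAV-GFP-MBNL1∆, 338.2 ± 21.7 CPM in AAV-GFP and 370.4 ± 77.3 CPM in saline (SD, n = 3 each). These r are a description over 9 libraries that share group means and, for Ifng, 1 library far above the rest.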

How the data were processed

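The values are counts of reads per gene, as deposited by the authors in 1 table for each of 9 gastrocnemius libraries. Per the labels' protocols, Trizol RNA was treated with DNase and prepared with a KAPA mRNA kit. Per the submitters' processing notes, the tools were cutadapt 2.10, STAR 2.7.5a, HTSeq 0.12.4 and DESeq2 1.30.0, with mm10 as the build. The strand setting and the annotation of the counting were not stated. The 5 summary rows (16.8% to 18.3% of reads) were left out. Symbols and coordinates came from GENCODE M21, which held 55141 of the 55401 identifiers.

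Of 30602 genes with a count, 18514 passed edgeR's filterByExpr (minimum count 10) and were fitted over all 9 libraries in R 4.3.3 by edgeR 4.0.16 (robust quasi-likelihood F test after TMM scaling, 1 mean per group, 6 residual degrees of freedom, biological coefficient of variation 0.232). Benjamini-Hochberg adjustment ran over all genes tested, and a call is an adjusted p under 0.05, from edgeR where no tool is named. The SE was computed as the log2 fold change over the square root of F. CPM used effective library sizes. Ratios of summed counts have exact binomial intervals (95%), except those set against the floor for 0 counts, which is 3 counts over a group.

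The members and all gene lists were chosen with earlier results of these data known. Genes named beside the members are fixed partners and receptors, up to 4 with the smallest p-value per list and comparison, all called genes where at most 5 were called, and, for like patterns, the 6 with the highest r (mean of at least 1 CPM, log2 CPM with a prior count of 2). The remaining genes called between the vectors among the transducers were named after their values were seen. Some genes that these rules select are not reported here. Nothing in the labels states that libraries came from separate animals, and the p-values therefore describe spread among libraries. The test was checked on simulated counts with 1 spread for all genes and groups. That check does not cover a group as uneven as AAV-GFP. Alternatives were DESeq2's size factors, no filter, a filter of 1 CPM in 3 libraries, DESeq2 1.42.0, limma-voom (limma 3.58.1) with a weight per library, a fit of the 2 compared groups alone, replicate number as a block, and leaving out each library.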

Additional observations from a re-analysis of the deposited data

How the results depend on the processing

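Counts of calls are given for all genes, the 10 members, the receptor chains, the partners and antagonists, the other cytokines and the transducers, in that order. For AAV-GFP-MBNL1∆ against saline edgeR called 1734, 2, 5, 0, 0 and 2. DESeq2 called 2889, 4, 8, 0, 2 and 5, and limma-voom with library weights 5350, 3, 8, 2, 6 and 7. With only the 2 groups fitted the counts were 4584, 3, 12, 3, 3 and 10. The 1 CPM filter tested 2 members and called 1, and called 1819 genes. Leaving out 1 library gave 500 to 4047, 1 to 4, 1 to 8, 0 to 2, 0 to 4 and 0 to 9.

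For AAV-GFP against saline edgeR called 0 in all 6 sets. DESeq2 called 1705, 9, 11, 7, 7 and 14, and limma-voom 5422, 9, 14, 9, 12 and 20, with a weight of 0.122 for AAV-GFP 2 and 6.58 for AAV-GFP 1. Leaving out 1 library gave 0 to 3262, 0 to 9, 0 to 14, 0 to 9, 0 to 14 and 0 to 18, and the highest numbers of members and of genes came without AAV-GFP 3. With 1 library left out, the log2 fold change of Il15 lay between −0.14 and 0.0070 and changed sign without AAV-GFP 1. Under the other alternatives it lay between −0.181 and −0.0386.

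For AAV-GFP-MBNL1∆ against AAV-GFP edgeR called 3914, 6, 3, 2, 5 and 7. DESeq2 called 5664 genes, 9 members, 12 receptor chains, 7 partners and 14 transducers. Limma-voom called 9236 genes, 9 members, 17 receptor chains, 9 partners, 15 other cytokines and 20 transducers. With only the 2 groups fitted 1159 genes, 2 members, 1 receptor chain, 0 partners, 1 other cytokine and 1 transducer were called. No filter left 2746 genes, 2 members, 0 partners, 3 other cytokines and 3 transducers, and the 1 CPM filter 3751 genes, 2 members of 2 tested and 3 other cytokines. Leaving out 1 library gave 826 to 6649, 1 to 9, 1 to 17, 0 to 9, 0 to 17 and 1 to 20.

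The labels do not say that the replicate numbers pair the libraries, and the correlations that follow do not settle it. The highest of any 2 libraries of different groups was that of replicate 3 between the vectors (0.446). Deviations of same-numbered libraries from their group means correlated at 0.0728, 0.168 and 0.446 between the vectors, at −0.0366 to −0.00546 for AAV-GFP-MBNL1∆ and saline, and at −0.0824 to 0.0728 for AAV-GFP and saline, and AAV-GFP-MBNL1∆ 1 correlated best with AAV-GFP 2 (0.278). With the replicate block, AAV-GFP-MBNL1∆ against saline gave 1412 genes, 4 members, 2 other cytokines and 5 transducers. AAV-GFP against saline gave 99 genes, 4 members, 1 receptor chain, 2 other cytokines and 1 transducer. AAV-GFP-MBNL1∆ against AAV-GFP gave 2837 genes, 5 members and 2 other cytokines.

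Of 450 values of single members under the alternatives, 344 kept their direction and side of the threshold, 53 were no longer called, 52 became called and 1 reversed. The cause of these shifts was not tested. Il15 kept its 2 calls under all 16 alternatives. Depth limits Il21, Il12b and Ifng most, with 0, 1 and 3 counts in saline.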
